A study of Mus musculus with 12 samples.

Results

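RNA sequencing of hearts from mice given an antibody against PD-1 together with leflunomide was compared with that of hearts from mice given the antibody and vehicle. The libraries were chosen by title: 4 titles begin with aPD1_lef and 4 with aPD1_veh, which makes 8 of the 12 labelled libraries, and all genes of the deposited table were considered. The antibody (aPD1) was given in both groups, so that by label only the drug differs; lef and veh were read as leflunomide and vehicle. The series' title and design text ask about protection of the heart by leflunomide from the toxicity of the antibody, in a mouse melanoma model. The labels give the tissue as heart and were not found to state strain, sex, age, dose, time or tumour, nor that the libraries of a group are separate animals. The p-values therefore measure the spread among these libraries, which may be technical. Of the other 4 libraries, labelled IgG_lef, 3 could be matched to a column and entered only 1 alternative fit, and no comparison with untreated hearts was made. The assignment of libraries to groups rests on the labels alone and was not checked against any measured gene, so every direction given here is that of the labels and would turn if the 2 group labels were exchanged.

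PD-1 is an inhibitory receptor of activated T cells, and antibodies that block it are cancer drugs with a known but uncommon toxicity for the heart. Leflunomide is an immunosuppressant whose active metabolite inhibits dihydroorotate dehydrogenase, an enzyme of pyrimidine synthesis, and it also binds the aryl hydrocarbon receptor. In the loaded or injured heart, fibroblasts are known to lay down collagen and other matrix, muscle cells return to genes of the fetal heart such as the natriuretic peptides, and the oxidation of fatty acids, the main fuel of the adult heart, declines.

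The table names no unit; its values were taken as FPKM, read numbers scaled by gene length and by the reads of the library, and are called so here, although their lowest values fell less steeply with gene length than such scaling would give. A difference is that of mean log2(FPKM + 1), aPD1_lef minus aPD1_veh, tested with limma and called at an adjusted p under 0.05. The share of all genes called, given with the counts over all genes, is the background for the count of each list. The value after ± beside a difference is its standard error. The values summed to 393494 to 413010 in aPD1_lef and to 441935 to 465511 in aPD1_veh, ranges that did not overlap (exact permutation test, two-sided, p = 0.0286, the smallest that 4 against 4 libraries can give). Between 11352 and 11859 genes stood at 1 or more in a library. Replicate 4 of aPD1_lef stood apart: its log2 values correlated with those of its own group at 0.910 to 0.949 across genes, against 0.979 to 0.992 among the other aPD1_lef libraries and 0.986 to 0.992 within aPD1_veh. The atrial myosin light chain Myl7 was at 32.5, 43.0, 0.131 and 0.164 FPKM in replicates 1 to 4 of aPD1_lef. In aPD1_veh it was at 0, 0.431, 1.16 and 0.428. Replicates 1 and 2 of aPD1_lef are called the libraries with atrial transcripts here, on Myl7 alone. Of 6 atrial markers tested (10 listed), 2 were called higher and 1 lower. The listed markers summed to 4386, 2249, 5238 and 4922 FPKM in replicates 1 to 4 of aPD1_lef, most of it Nppa. In aPD1_veh they summed to 65.0 to 651 FPKM. Muscle cell markers of the ventricle were high in all 8 libraries, with Myl2 at 1742 to 6407 FPKM in aPD1_lef and 5598 to 8663 in aPD1_veh.

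Of 11834 genes tested, 1861 (15.7%) were called higher in the libraries labelled aPD1_lef and 1267 (10.7%) lower. A difference of at least 1 on the log2 scale was called for 5.99% of genes, 445 upward (3.76%) and 264 downward (2.23%). The values of the groups did not overlap for 2440 genes (20.6%) with aPD1_lef above and 1845 (15.6%) with aPD1_veh above. The filter on low values was passed only through aPD1_lef by 123 genes and only through aPD1_veh by 67; such genes had to differ to be tested, and those named are marked as such with no p-value. Those passing only through aPD1_lef were 3 of the collagens tested, 3 of the other matrix proteins, 2 of the cell cycle genes and 1 each of the strain, crosslinking, integrin, TGF-beta, immediate early and antioxidant genes, all called higher, so the counts for these lists hold them. The median difference of all genes tested was 0.04, and 59.5% of the calls were upward. That share depended on the scaling: it was 79.2% after scaling all libraries to a single total, which put the median of all genes at 0.17, and 46.7% and 44.8% under quantile normalization and median-ratio scaling. The number of calls changed with single libraries as well, against 3128 with all of them, and each omission also leaves fewer libraries. It was 2184, 3548, 1397 and 4075 without aPD1_lef replicates 1, 2, 3 and 4. Without aPD1_veh replicates 1, 2, 3 and 4 it was 1857, 1276, 1679 and 1183. The median SD of log2(FPKM + 1) was 0.224 in aPD1_lef, 0.117 without its replicate 4 and 0.127 in aPD1_veh. Among the called genes given library by library in what follows, the values of the groups overlapped in Nppb only. Cxcl10 shares exon sequence with Art3, Pfkp with Pitrm1, Pfkfb1 and Alas2 with Apex2, and Mfap4 with Mapk7, each on the opposite strand, and Acot1 and Acot2, the Gstm genes and Oas1a have close copies; how such reads were assigned is not stated, which makes these values less certain.

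**Figure D1:**
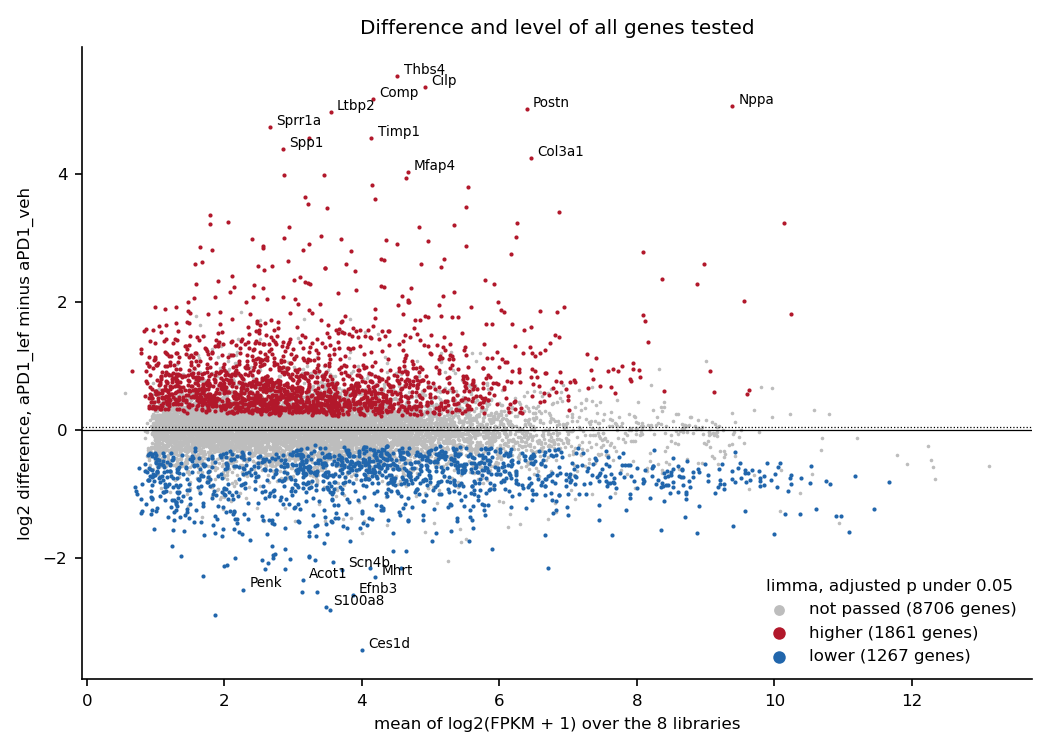
Each point is a gene tested, placed by its mean log2(FPKM + 1) over the 8 libraries and by its log2 difference, aPD1_lef minus aPD1_veh, with genes called higher in red, lower in blue and the others in grey; the dotted line is the median of all genes, 0.04. Names mark some of the genes with the largest differences: the increases reach 5.53 in Thbs4 and the decreases -3.44 in Ces1d.

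The 12 largest increases were led by genes of the extracellular matrix. Thbs4 (chromosome 13, 92751586 to 92794818, GRCm38), a thrombospondin of tendon and injured heart, stood at 150.1, 72.0, 172 and 306 FPKM in replicates 1 to 4 of aPD1_lef and at 4.51, 2.74, 2.03 and 1.03 in aPD1_veh, a log2 difference of 5.53 ± 0.442 with adjusted p = 0.000495. Cilp (chromosome 9, 65265180 to 65280614), a matrix protein first known from cartilage, stood at 171, 122, 243 and 273 FPKM against 8.48, 3.29, 4.34 and 1.34, and Comp (chromosome 8, 70373548 to 70382066), an oligomeric protein that binds collagen, at 129, 80.1, 113 and 112 against 4.62, 2.81, 2.06 and 0.226. In all 3 genes the lowest aPD1_lef library lay far above the highest aPD1_veh library. Postn, the periostin of activated fibroblasts, rose by 5.01 ± 0.467 (198 to 854 FPKM in aPD1_lef against 10.1 to 21.5). Ltbp2, which binds elastic fibres, rose by 4.96, Col3a1, the chain of type III collagen, by 4.25, and Spp1, the matrix protein and cytokine osteopontin, by 4.39. Sprr1a, a cornified-envelope protein that stressed muscle cells also make, rose by 4.73. Spp1 and Sprr1a passed the filter only through aPD1_lef.

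Some of these genes were even across the aPD1_lef libraries and others were not. Mfap4, a protein of elastic microfibrils, stood at 101, 95.7, 97.6 and 114 FPKM in aPD1_lef and at 8.11, 4.89, 5.40 and 3.54 in aPD1_veh, a difference of 4.03 ± 0.191 with adjusted p = 6.54e-05. Its highest aPD1_lef library was replicate 4, but all 4 were close together. Timp1, an inhibitor of matrix metalloproteinases, stood at 35.7, 19.1, 104 and 690.3 FPKM against 5.66, 2.72, 2.35 and 1.09 and rose by 4.56 ± 0.982. Replicate 4 alone carried most of the Timp1 mean. Because whole tissue was sequenced, more cells of a type and more RNA per cell cannot be told apart here, for these genes or for any other. Leaving out single libraries ended the call of Timp1 (when aPD1_veh replicate 4 was left out, with adjusted p from 0.00332 to 0.0519 over the 8 fits that each omit 1 library; further on, the libraries whose single omission ended a call and this range are given in parentheses).

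Among the 12 largest decreases were enzymes of lipid metabolism, muscle genes and a marker of neutrophils. Ces1d (chromosome 8, 93166072 to 93197804), a carboxylesterase that cleaves stored and circulating esters, stood at 9.54, 17.2, 1.22 and 0.305 FPKM in replicates 1 to 4 of aPD1_lef and at 38.1, 49.9, 67.8 and 55.1 in aPD1_veh, a decrease of 3.44 ± 0.771 on the log2 scale (adjusted p = 0.017). Acot1 (chromosome 12, 84009502 to 84017670), an acyl-CoA thioesterase of the PPAR program, stood at 3.45, 4.42, 2.10 and 2.18 FPKM against 10.3, 16.6, 39.6 and 18.1. The groups did not overlap in either gene, and replicates 3 and 4 were the lowest of aPD1_lef. Penk, the precursor of enkephalin, fell by 2.49, Pla2g5, a secreted phospholipase, by 2.17, and Ttll1, an enzyme that adds glutamate chains to tubulin, by 2.15 ± 0.241. Efnb3, an ephrin, fell by 2.57, Cmss1, a gene linked to ribosome assembly in yeast, by 2.16, and Scn4b, a beta subunit of the cardiac sodium channel, by 2.18. S100a8, a subunit of the neutrophil protein calprotectin, fell by 2.77 with replicate 4 at 19.1 FPKM beside 0.935 to 2.18 in the other aPD1_lef libraries. Mhrt, an RNA transcribed antisense to the myosin gene Myh7, was lower by 2.29, but its reads and those of Myh7 cannot be told apart with certainty, since the strand used in counting is not stated. Omission of 1 library was enough to lose the call of Ces1d (aPD1_lef replicate 3 and aPD1_veh replicate 4, 0.00522 to 0.0529), Efnb3 (aPD1_lef replicate 3 and aPD1_veh replicates 1, 2, 3 and 4, 0.0122 to 0.0896), Scn4b (aPD1_lef replicate 3 and aPD1_veh replicates 1, 2, 3 and 4, 0.00725 to 0.0739), S100a8 (aPD1_lef replicate 3 and aPD1_veh replicates 1, 2, 3 and 4, 0.000377 to 0.0634) and Mhrt (aPD1_lef replicates 1 and 3 and aPD1_veh replicates 1, 2, 3 and 4, 0.00937 to 0.0924).

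**Figure D2:**
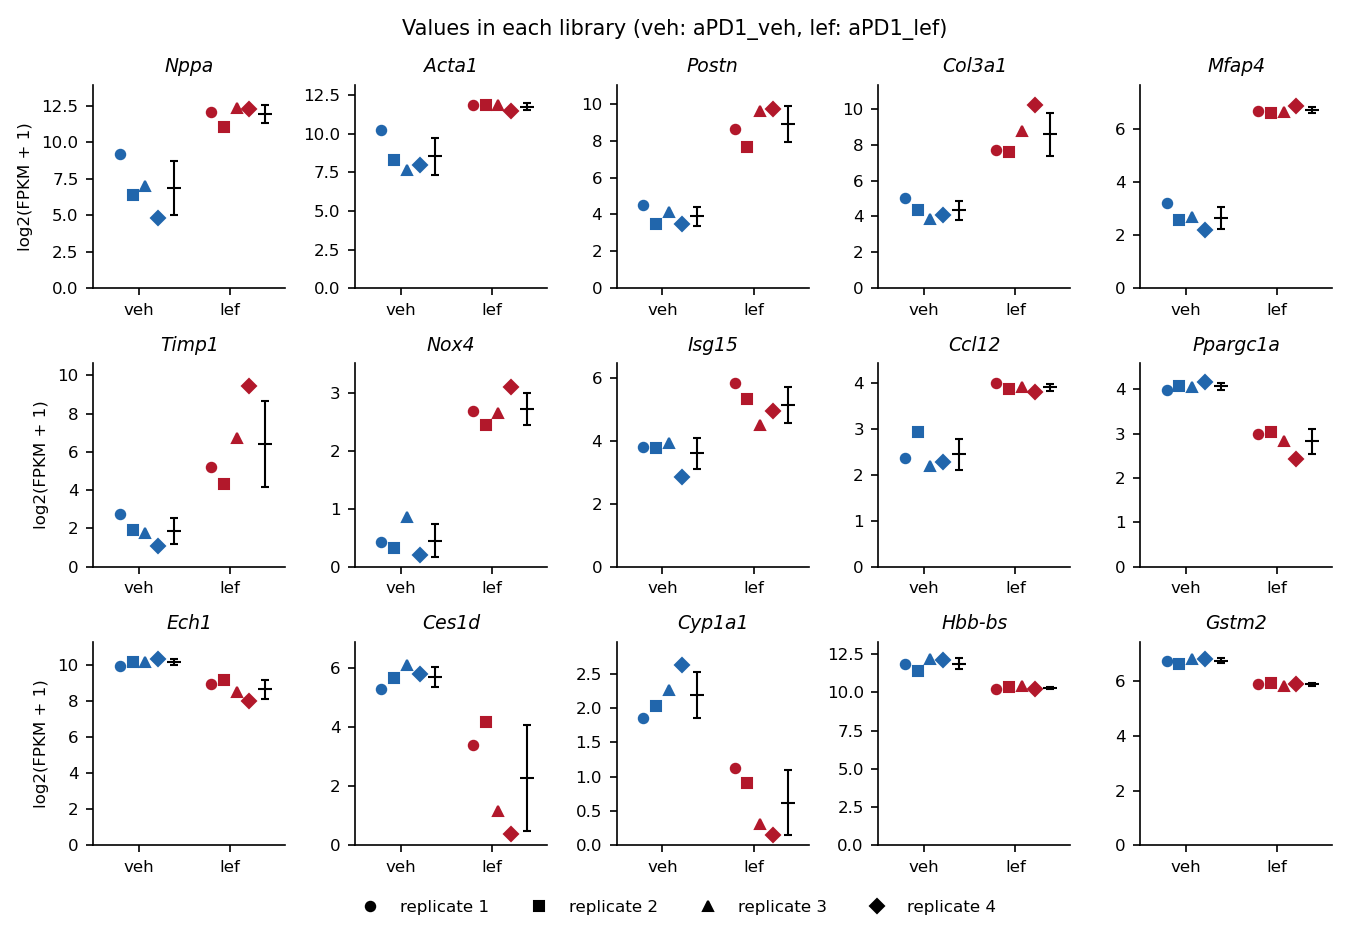
Each panel gives log2(FPKM + 1) of 1 gene in the 4 aPD1_veh libraries (blue) and the 4 aPD1_lef libraries (red), with a symbol for each replicate number and the mean ± SD in black. In all 15 genes the groups do not overlap; Mfap4, Ccl12, Hbb-bs and Gstm2 are even across the aPD1_lef libraries, whereas Timp1 and Ces1d spread widely, with replicate 4 at 690 and at 0.305 FPKM.

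All 21 collagen genes tested rose, out of 22 listed, with a median difference of 2.64 against 0.04 for all genes, and in all of them the lowest aPD1_lef library was above the highest aPD1_veh library. The untested gene, Col11a1, was at 0.0757 to 1.05 FPKM in aPD1_lef and at 0 in every aPD1_veh library, and 3 of those tested passed the filter only through aPD1_lef, so that the full count is no independent support. Among the fibrillar chains, chosen with Col4a1 and Col4a4 after their values were seen, Col1a1 stood at 118, 89.7, 174 and 489 FPKM in aPD1_lef and at 17.2, 13.0, 9.90 and 7.82 in aPD1_veh, and Col1a2 at 159.5, 129.6, 253 and 573 against 31.2, 23.8, 23.1 and 19.0. In both, replicate 4 was the highest and replicate 2 the lowest of aPD1_lef. Col8a2, a short-chain collagen that passed the filter only through aPD1_lef, stood at 6.96, 5.91, 7.64 and 9.50 FPKM against 0.227, 0.195, 0.0761 and 0.118. Col14a1, which binds fibril surfaces, rose by 2.57 ± 0.174, and Col6a2, of the beaded filaments around cells, by 2.67 ± 0.210. The basement membrane chains split in their pattern: Col4a1 stood at 176, 161, 220.1 and 519.9 FPKM, highest in replicate 4, while Col4a3 stood at 3.56, 2.89, 2.49 and 2.80 and Col4a4 at 5.63, 4.90, 4.05 and 3.28, both highest in replicate 1; Col4a3 passed the filter only through aPD1_lef. In aPD1_veh these 3 chains stood at 48.3 to 85.4, 0.184 to 0.302 and 0.868 to 1.05 FPKM. Leaving out any single library left 20 or 21 collagens called.

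Enzymes that process and crosslink collagen moved the same way, with 16 of 19 tested called higher, none lower and a median of 1.27. Loxl2, a lysyl oxidase that crosslinks collagen, stood at 28.7, 16.6, 44.0 and 82.3 FPKM against 3.55, 2.43, 1.87 and 1.95 and rose by 3.46 ± 0.421 (adjusted p = 0.00186). Adamts2, the protease that trims the procollagen N-terminus, rose by 2.53, and Pcolce, an enhancer of the C-terminal protease, by 1.85. Pcolce2, its relative, stood at 28.4, 24.4, 25.7 and 24.4 FPKM in aPD1_lef against 13.4, 10.1, 9.76 and 9.04, which is even within each group, and rose by 1.22 ± 0.121. Leaving out single libraries gave 13 to 17 calls.

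Of 36 other matrix proteins tested (38 listed, 3 passing the filter only through aPD1_lef), 31 were called higher and none lower, with a median of 2.29. Bgn, the proteoglycan biglycan, averaged 747 ± 265 FPKM (SD, n = 4) against 105 ± 29.4, and Fn1, fibronectin, 68.8 ± 36.9 against 7.36 ± 0.952. Sparc, a collagen-binding matricellular protein, averaged 796 ± 343 FPKM against 146 ± 23.4. These genes were chosen after their values were seen, for their abundance. Ccn5, a matricellular protein that lacks the C-terminal domain of its family, stood at 75.0, 76.7, 129.7 and 71.9 FPKM against 12.5, 8.89, 9.72 and 10.1 and rose by 2.95 ± 0.196, with replicate 3 the highest. Aspn, a leucine-rich proteoglycan that binds TGF-beta, stood at 50.7, 38.7, 45.9 and 35.3 FPKM against 10.1, 6.82, 9.26 and 7.11 and rose by 2.23 ± 0.156, with replicate 4 the lowest of its group though still above every aPD1_veh library. Leaving out single libraries gave 29 to 33 calls.

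Proteases and their inhibitors went both ways: of 19 tested, 10 were called higher and 2 lower, against the 15.7% and 10.7% of all genes. Mmp2, a gelatinase, stood at 98.9, 79.6, 72.8 and 88.8 FPKM against 20.2, 18.0, 16.6 and 17.9 and rose by 2.16 ± 0.113 (adjusted p = 8.84e-05). Adamtsl2, a secreted protein that binds latent TGF-beta binding protein, rose by 3.04 ± 0.190, and Ctsk, the collagen-cleaving cathepsin K, by 2.30 ± 0.187. The 2 that fell were Timp4, the inhibitor best known from the heart, at 11.6, 13.7, 12.9 and 9.59 FPKM against 24.8, 25.3, 33.5 and 30.6, and Mmp9, the gelatinase of neutrophils, at 0.0319, 0.0687, 0.137 and 0.589 against 1.21, 1.15, 1.25 and 1.19. Timp4 fell by 1.19 ± 0.137 and Mmp9 by 0.89 ± 0.143, and Mmp9 passed the filter only through aPD1_veh. Within the family of metalloproteinase inhibitors Timp1 rose while Timp4 fell. Without aPD1_veh replicate 4 the count of higher calls was 6.

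Fibroblast markers went the same way as the matrix between the groups: 7 of 10 tested were called higher and none lower (median 1.09). The sum of the 11 listed markers was 2329, 2100, 1671 and 1676 FPKM in replicates 1 to 4 of aPD1_lef and 937 to 1281 in aPD1_veh. The sum of the listed collagens was 1263, 1063, 1905 and 4061 FPKM in the same aPD1_lef libraries. Within aPD1_lef, replicates 3 and 4 thus had the highest collagen sums and the lowest fibroblast sums. The median of the tested fibroblast markers above the aPD1_veh mean had another order. It was 1.25, 0.88, 1.16 and 1.37 in replicates 1 to 4, highest in replicate 4 and lowest in replicate 2, as in the collagens. Lum, a small collagen-binding proteoglycan, stood at 115, 116, 107 and 81.8 FPKM against 39.9, 30.9, 30.3 and 29.7, and Pi16, a marker of a fibroblast state found in many tissues, at 132, 112, 132 and 128 against 42.7, 26.6, 42.8 and 17.9. Pdgfra, the receptor that defines fibroblasts in the heart, stood at 11.7, 13.9, 10.8 and 30.5 FPKM against 7.84, 7.61, 9.75 and 7.22, with replicate 4 well above the others, and did not pass (adjusted p = 0.0592). Of 20 alternative settings, Pdgfra did not pass in 15, but the fit without aPD1_lef replicate 4 was among those in which it passed. The part of fibroblast number in the matrix results was not tested.

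Growth factor genes that act on fibroblasts were among the calls. Of 20 genes of the TGF-beta superfamily tested (29 listed), 12 were called higher and none lower, with a median of 0.98. Tgfb3, a ligand, stood at 19.4, 16.6, 23.7 and 17.4 FPKM against 5.80, 5.64, 6.54 and 4.02 and rose by 1.64 ± 0.153 (adjusted p = 0.000659), and Tgfb2, another ligand, rose by 2.04 ± 0.333 (6.32 to 22.04 FPKM in aPD1_lef against 1.45 to 2.93). Fstl1, a secreted follistatin-like protein, rose by 3.02 ± 0.345, and Skil, an inhibitor that TGF-beta itself induces, by 1.01 ± 0.175. The count was 6, 5, 5 and 5 without aPD1_lef replicate 3 and aPD1_veh replicates 1, 2 and 4, each left out in turn.

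Of 27 genes of the IGF, FGF, PDGF and VEGF families tested, 8 were called higher and 2 lower. Igf1, the insulin-like growth factor, stood at 7.19, 6.803, 9.50 and 5.71 FPKM against 1.81, 2.28, 2.31 and 2.27 and rose by 1.37 ± 0.140. Igfbp7 and Igfbp6, which bind insulin-like growth factors, rose by 2.28 ± 0.248 and 1.72 ± 0.257, and Pdgfrb, the receptor of pericytes and fibroblasts, stood at 30.3, 30.5, 34.6 and 36.1 FPKM against 18.3, 18.2, 20.6 and 17.9. The 2 that fell were Fgf13, an intracellular FGF that binds sodium channels, at 10.3, 11.5, 10.3 and 6.94 FPKM against 16.7, 17.2, 16.2 and 20.2, and Vegfb, a growth factor made by heart muscle, at 152, 159, 166 and 94.4 against 220.2, 215, 210 and 247. The count of higher calls was 5 each without aPD1_lef replicate 3 and aPD1_veh replicates 2, 3 and 4. Single libraries decided the call of Vegfb (aPD1_veh replicates 1, 2, 3 and 4, 0.00335 to 0.0857).

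Integrins and actin genes followed. Of 24 genes of integrins and focal adhesions tested, 10 were called higher and 1 lower: Itga9 rose by 1.47 ± 0.135 (23.3 to 30.8 FPKM in aPD1_lef against 6.95 to 10.4), Itga11, the collagen receptor of fibroblasts, which passed the filter only through aPD1_lef, by 1.69, and Parva, a linker of integrins to actin, by 0.69 ± 0.118. Lims2, a partner of integrin-linked kinase, fell by 0.51. The count of higher calls was 6, 5 and 5 without aPD1_lef replicate 3 and aPD1_veh replicates 2 and 4. Some calls did not outlast each omission of 1 library: Lims2 (aPD1_lef replicate 3 and aPD1_veh replicates 2, 3 and 4, 0.011 to 0.0808).

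Of 26 actin and serum response genes tested, 15 were called higher and none lower (median 0.80), but the count was only 3 each without aPD1_lef replicate 3 and aPD1_veh replicates 2, 3 and 4. Tmsb10, which binds actin monomers, stood at 102, 95.3, 119 and 166 FPKM against 58.5, 46.6, 39.5 and 43.8 and rose by 1.32 ± 0.192, Flna, a crosslinker of actin filaments, rose by 0.95 ± 0.171, and Tmsb4x, the other main thymosin, by 0.56 ± 0.117. Among the muscle actins, Acta1, the skeletal form that returns in strained heart muscle, stood at 3640, 3729, 3710 and 2779 FPKM in aPD1_lef and at 1209, 306, 198 and 245 in aPD1_veh, and rose by 3.23 ± 0.508, with aPD1_veh replicate 1 well above the rest of its group. Actg1, the cytoplasmic gamma actin, stood at 214, 182, 268 and 454 FPKM against 178, 147, 111 and 122 and was called by a small margin (difference 0.93 ± 0.281, adjusted p = 0.0418). Serum response factor binds a sequence known as the CArG box, which stood in the promoter window of 7 of the 21 genes of this list with a window, against 1.81% of 27025 genes of the annotation; the window runs from 250 bases before to 50 after the start. It was present in 2 of the 13 called higher and in 5 of the 8 that did not pass. The 150 bases before the start of Acta1 (chr8:123894776-123894925, minus strand) and Actg1 (chr11:120348496-120348645, minus strand), from RefSeq on GRCm38.p6, are shown because both hold the box, in capitals; Actg1 was chosen after its values were seen. With 1 library left out, calls were lost for Actg1 (aPD1_lef replicates 1 and 3 and aPD1_veh replicates 1, 2, 3 and 4, 0.0212 to 0.109).
Acta1: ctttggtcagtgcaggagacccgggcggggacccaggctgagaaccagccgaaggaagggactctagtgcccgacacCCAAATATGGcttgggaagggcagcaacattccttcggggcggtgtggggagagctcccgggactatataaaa
Actg1: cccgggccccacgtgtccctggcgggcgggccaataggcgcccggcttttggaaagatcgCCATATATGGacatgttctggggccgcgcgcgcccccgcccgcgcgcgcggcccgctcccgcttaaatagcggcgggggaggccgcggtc

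Genes of strained heart muscle were higher in the libraries labelled aPD1_lef. Of 16 tested, 11 were called higher and none lower, with a median of 1.73, and the count was 7 each without aPD1_veh replicates 2, 3 and 4. Nppa (chromosome 4, 148000722 to 148002074), the atrial natriuretic peptide, stood at 4207, 2071, 5183 and 4866 FPKM in aPD1_lef and at 596, 81.6, 129.9 and 27.0 in aPD1_veh, and rose by 5.05 ± 0.813 (adjusted p = 0.00562). Its lowest aPD1_lef library, replicate 2, was still above aPD1_veh replicate 1, the highest of its group. Nppb, the other natriuretic peptide, stood at 937, 671, 1771 and 2085 against 673, 162, 70.1 and 226 FPKM, values that overlap through aPD1_veh replicate 1. Myh7, the slow myosin heavy chain, stood at 698, 297, 505 and 634 FPKM against 153, 134, 187 and 115 and rose by 1.80 ± 0.274, and Xirp2, an actin-binding protein of cell junctions, rose by 2.35 ± 0.369. Uchl1, a deubiquitinase that appears in stressed muscle cells, stood at 24.99, 17.5, 24.3 and 32.7 FPKM against 10.2, 7.16, 8.29 and 4.87. Replicates 3 and 4 of aPD1_lef, which nearly lacked Myl7, held 5183 and 4866 FPKM of Nppa, which is itself among the listed atrial markers. The part of atrial tissue in the Nppa difference was not tested. Leaving out single libraries ended the call of Nppb (aPD1_lef replicate 3 and aPD1_veh replicates 2, 3 and 4, 0.0107 to 0.0711).

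Few genes of the contractile apparatus were called. Of 20 sarcomere and Z-disc genes tested, 1 was called higher (Myom2, of the M-band) and 1 lower (Tnni3, cardiac troponin I). The list had a median of -0.43. The count of lower calls was 2, 4, 0, 4, 0, 0, 0 and 0 without aPD1_lef replicates 1, 2, 3 and 4 and aPD1_veh replicates 1, 2, 3 and 4, and 10 of its genes were called lower once replicates 1 and 2 of aPD1_lef, those with atrial transcripts, were left out. Myh6, the main adult myosin heavy chain, stood at 2095, 2795, 1370 and 244 FPKM against 3136, 3395, 3074 and 3429 and did not pass (adjusted p = 0.135), with replicate 4 far below the others. Markers of ventricular muscle cells summed to 9663 to 26780 FPKM in aPD1_lef and to 25150 to 36290 in aPD1_veh. Omission of 1 library was enough to lose the call of Myom2 (aPD1_lef replicates 1, 2 and 3 and aPD1_veh replicates 1, 2, 3 and 4, 0.00386 to 0.0939) and Tnni3 (aPD1_lef replicate 3 and aPD1_veh replicates 1, 2, 3 and 4, 0.00246 to 0.0797).

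Most calls among calcium handling and ion channel genes were lower. Of 19 calcium handling genes tested, 6 were called lower and 1 higher: Ryr2, the calcium release channel, stood at 56.2, 70.04, 44.0 and 46.2 FPKM against 78.5, 89.2, 89.8 and 77.0, Cacna1c, the L-type calcium channel, at 18.0, 17.5, 15.7 and 12.0 against 22.4, 21.9, 24.3 and 22.9, and Atp2a2, the pump that refills the calcium store, at 1614, 2304, 992 and 689.9 against 2824, 3588, 3223 and 3178. The groups did not overlap in these 3 genes. The count of lower calls was 0, 2, 0, 0 and 1 without aPD1_lef replicate 3 and aPD1_veh replicates 1, 2, 3 and 4, and the gene called higher was Stc2, a secreted stanniocalcin. Of 23 ion channel and conduction genes tested, 8 were called lower and 1 higher (median -0.72), and the count of lower calls was 5, 2, 4, 1, 1 and 1 without aPD1_lef replicates 1 and 3 and aPD1_veh replicates 1, 2, 3 and 4. Kcnv2, a silent potassium channel subunit, stood at 0.259, 0.617, 0.120 and 0.0949 FPKM against 2.08, 4.45, 5.17 and 2.66, and passed the filter only through aPD1_veh. Kcnk3, a background potassium channel, stood at 46.4, 53.1, 49.4 and 24.2 FPKM against 89.3, 80.3, 71.5 and 75.8. The gene that rose was Gjc1, the connexin 45 of the conduction system, at 20.8, 14.3, 21.2 and 25.8 FPKM against 12.0, 8.83, 11.7 and 11.2 (difference 0.83 ± 0.173). Single libraries decided the call of Ryr2 (aPD1_lef replicate 3 and aPD1_veh replicates 2 and 3, 0.00517 to 0.0625), Cacna1c (aPD1_lef replicate 3 and aPD1_veh replicates 2, 3 and 4, 0.00479 to 0.0606), Atp2a2 (aPD1_lef replicate 3 and aPD1_veh replicates 1, 2, 3 and 4, 0.00684 to 0.0737), Stc2 (aPD1_lef replicates 1 and 3 and aPD1_veh replicates 1, 3 and 4, 0.0026 to 0.0673) and Kcnk3 (aPD1_veh replicates 1, 2, 3 and 4, 0.00189 to 0.0675).

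Among 21 receptor and signalling genes tested, 2 were called higher and 5 lower, which is 9.52% and 23.8% against 15.7% and 10.7% of all genes. Ace, the angiotensin-converting enzyme, stood at 82.0, 64.7, 108 and 130.4 FPKM against 26.0, 19.9, 33.2 and 18.6 and rose by 1.93 ± 0.249 (adjusted p = 0.00242). Corin, the protease that activates the atrial natriuretic peptide, stood at 21.7, 24.7, 24.2 and 24.2 FPKM against 37.2, 40.6, 48.5 and 33.4 and fell by 0.72 ± 0.118, so that the peptide's gene rose while that of its activating protease fell. Rgs2, a brake on G protein signals, fell by 1.09 ± 0.213, with replicate 4 the highest of aPD1_lef. The count of lower calls was 2, 3, 2, 2 and 2 without aPD1_lef replicate 3 and aPD1_veh replicates 1, 2, 3 and 4, and that of higher calls was 1 each without aPD1_lef replicate 3 and aPD1_veh replicates 1, 2 and 4.

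Nuclear genes of the mitochondrial respiratory chain were lower in the libraries labelled aPD1_lef. The deposited values include no gene encoded in mitochondrial DNA, so those subunits were not seen. All 36 complex I genes tested had a negative difference, from -1.002 to -0.33, 31 were called lower, and 35 did not overlap between the groups. Sdhc, of complex II, stood at 258, 273, 244 and 165 FPKM against 408, 419.6, 388 and 449, Cox7a2, of complex IV, at 304, 321, 303 and 201 against 432, 519.9, 474 and 521, and Atp5e, of the ATP synthase, at 773, 794, 686 and 519.6 against 1054, 1210, 1104 and 1258. In each of these the lowest library was aPD1_lef replicate 4 and the highest aPD1_lef library was replicate 2. Among 41 genes of complexes II to V, 33 were called lower and none higher. The median differences were -0.74 and -0.71. The calls were close to the threshold: for complex I the count was 6, 11, 1, 7 and 0 without aPD1_lef replicate 3 and aPD1_veh replicates 1, 2, 3 and 4, and for complexes II to V it was 19, 7, 13, 4, 9 and 3 without aPD1_lef replicates 1 and 3 and aPD1_veh replicates 1, 2, 3 and 4, while without aPD1_lef replicate 4 it was 34 and 37. Under quantile normalization 7 and 2 were called, with medians of -0.55 and -0.40. With the replicate number as a block 0 and 1 were called lower, with medians still at -0.74 and -0.71.

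The tricarboxylic acid cycle and the mitochondrial ribosome followed the respiratory chain. Of 26 genes of the cycle and of pyruvate use, 19 were called lower and none higher (median -0.70). Suclg2, a subunit of succinyl-CoA ligase, stood at 35.7, 36.7, 32.7 and 23.4 FPKM against 52.9, 60.7, 59.1 and 63.8 and fell by 0.88 ± 0.145, and Pcx, the carboxylase that refills the cycle, at 8.01, 8.34, 7.65 and 7.505 against 10.9, 11.1, 14.2 and 11.2, which is even in aPD1_lef. The count was 5, 7, 4, 6 and 3 without aPD1_lef replicate 3 and aPD1_veh replicates 1, 2, 3 and 4, and 7 under quantile normalization. Of 36 mitochondrial ribosome genes, 14 were called lower (median -0.39), among them Mrps30, which fell by 0.54 ± 0.0912. That count was 7, 2, 22, 4, 2, 3 and 1 without aPD1_lef replicates 1, 3 and 4 and aPD1_veh replicates 1, 2, 3 and 4, and 4 with libraries scaled to one total.

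Fatty acid oxidation had the largest share of lower calls among the metabolic lists, with 28 of 30 genes tested called lower, none higher and a median of -0.98. Ech1, which prepares unsaturated fatty acids for oxidation, stood at 483, 571, 366 and 254 FPKM against 978, 1148, 1128 and 1287, and Hadhb, of the trifunctional protein, at 447, 483, 404 and 292 against 712, 829.6, 769 and 847. Acot2, a mitochondrial thioesterase, stood at 17.1, 20.5, 12.0 and 10.7 FPKM against 36.0, 36.1, 49.7 and 42.3 and fell by 1.42 ± 0.204 (adjusted p = 0.00367). Cpt1b, the muscle form of the transferase that lets fatty acids into mitochondria, was lower by 0.69 and Cd36, a fatty acid transporter, by 0.84; both were chosen after their values were seen, for their place in the pathway. The count was 15, 15, 18 and 14 without aPD1_lef replicate 3 and aPD1_veh replicates 2, 3 and 4. Some calls did not outlast each omission of 1 library: Cpt1b (aPD1_lef replicate 3 and aPD1_veh replicates 1, 2, 3 and 4, 0.00513 to 0.0689).

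Among 22 genes of the PPAR, PGC-1 and ERR regulators, 8 were called lower and none higher. Ppargc1a, the coactivator PGC-1 alpha, stood at 7.02, 7.26, 6.13 and 4.36 FPKM against 14.8, 15.9, 15.7 and 16.9 and fell by 1.25 ± 0.139 (adjusted p = 0.00131), with little spread in aPD1_veh. Klf15, a transcription factor of fasting metabolism, stood at 14.3, 15.6, 12.3 and 11.6 FPKM against 21.4, 29.1, 38.6 and 27.2, and Nr1h3, the sterol receptor LXR alpha, at 6.798, 7.92, 8.75 and 5.51 against 14.3, 18.0, 21.6 and 12.4. The count was 5, 3, 14, 3, 3, 3 and 3 without aPD1_lef replicates 1, 3 and 4 and aPD1_veh replicates 1, 2, 3 and 4. Of 19 genes of lipid storage and lipolysis, 10 were called lower and none higher: Plin5, the lipid droplet protein of oxidative tissues, stood at 29.7, 37.9, 27.4 and 19.1 FPKM against 66.7, 79.9, 118 and 71.4 and fell by 1.53 ± 0.234, Pnpla2, the first lipase of stored fat, fell by 0.79 ± 0.138, and Mgll, which frees the last fatty acid, by 0.75 ± 0.140. That count was 6 each without aPD1_lef replicate 3 and aPD1_veh replicate 4.

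Glucose genes did not move as a group. Of 29 tested, 1 was called higher and 6 lower, with a median of -0.03. Within the phosphofructokinase step, Pfkp, the platelet form, rose by 1.49 ± 0.260 (25.1 to 66.0 FPKM in aPD1_lef against 12.4 to 15.7), while Pfkfb1, which makes the activator of the enzyme in liver and muscle, stood at 0.468, 1.504, 1.29 and 0.616 FPKM against 4.13, 6.46, 12.2 and 8.48 and fell by 2.11 ± 0.295. Ldhb, the lactate dehydrogenase of heart, stood at 606, 706, 468 and 287 FPKM against 1107, 1215, 1116 and 1289, and Gys1, the muscle glycogen synthase, at 24.9, 33.3, 29.6 and 31.9 against 41.4, 50.6, 48.9 and 41.9. With the 2 libraries holding atrial transcripts left out, 8 were called each way. The lower count was 3 each without aPD1_lef replicate 3 and aPD1_veh replicates 2, 3 and 4.

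Of 23 genes of ketone and branched-chain amino acid use, 17 were called lower and none higher (median -0.84). Bckdhb, of the dehydrogenase that commits these amino acids to breakdown, stood at 21.4, 24.4, 17.7 and 10.5 FPKM against 39.8, 45.9, 46.3 and 52.9 and fell by 1.33 ± 0.230, and Aldh6a1, of valine breakdown, stood at 38.2, 51.9, 31.2 and 21.2 against 77.9, 86.0, 96.1 and 87.4. Bcat2, the mitochondrial transaminase, fell by 0.69 ± 0.117. The count was 9, 11, 10, 9 and 7 without aPD1_lef replicate 3 and aPD1_veh replicates 1, 2, 3 and 4. Of 23 genes of NAD and creatine energy, 5 were called higher and 6 lower, 21.7% and 26.1% against 15.7% and 10.7%. Nampt, the main enzyme of NAD salvage, stood at 29.8, 35.0, 23.3 and 30.0 FPKM against 48.2, 56.0, 76.1 and 58.7 and Nadk2, the mitochondrial NAD kinase, at 10.1, 12.0, 9.79 and 9.61 against 18.8, 21.9, 27.4 and 22.9. Nnmt, which methylates nicotinamide and so diverts it from salvage, rose by 1.37 ± 0.211, and Gatm and Ckb, of creatine synthesis and phosphorylation, by 0.73 ± 0.111 and 0.69 ± 0.135. The 2 counts were 3 without aPD1_veh replicate 2 or 3, and the higher one also without replicate 4.

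The genes around the drug's known targets went both ways. Dhodh, which encodes dihydroorotate dehydrogenase, stood at 5.88, 5.76, 4.82 and 3.17 FPKM in aPD1_lef and at 7.52, 8.04, 7.59 and 7.15 in aPD1_veh. The groups did not overlap, and Dhodh fell by 0.56 ± 0.157 (adjusted p = 0.0328). Of 24 genes of pyrimidine synthesis and salvage tested, 7 were called higher and 2 lower, the other being Dut, which removes dUTP. These shares were 29.2% higher and 8.33% lower, against 15.7% and 10.7% of all genes, so the lower share was below that of all genes. Cad, which holds the first steps of pyrimidine synthesis, stood at 3.39, 3.33, 3.46 and 3.29 FPKM against 2.82, 3.19, 2.69 and 3.05 and did not pass (adjusted p = 0.191). Umps, which holds the last steps, stood at 3.09, 3.23, 3.91 and 2.88 FPKM against 3.11, 2.96, 3.60 and 2.38 and did not pass (adjusted p = 0.581); both were chosen after their values were seen. Those called higher were enzymes of salvage, breakdown and nucleotide supply (Cda, Ctps, Dck, Nme1, Rrm2, Uck2 and Upp1). Cda, cytidine deaminase, stood at 3.94, 3.73, 3.00 and 2.86 FPKM against 1.48, 1.47, 0.569 and 0.890 and rose by 1.078 ± 0.170, Dck, deoxycytidine kinase, stood at 4.36, 3.91, 3.85 and 3.36 against 2.10, 2.38, 1.89 and 1.57, and Rrm2, of ribonucleotide reductase, rose by 1.06 ± 0.218. Uck2, the uridine-cytidine kinase, stood at 50.7, 30.8, 104 and 179 FPKM against 24.2, 14.3, 14.6 and 14.3, with replicate 4 the highest. The counts were 3, 4, 4 and 3 without aPD1_lef replicate 3 and aPD1_veh replicates 2, 3 and 4 for higher and 0 for lower calls without any 1 of aPD1_lef replicate 3 and the 4 aPD1_veh libraries. With 1 library left out, calls were lost for Dhodh (aPD1_lef replicate 3 and aPD1_veh replicates 1, 2, 3 and 4, 0.00847 to 0.0884), Dut (aPD1_lef replicate 3 and aPD1_veh replicates 1, 2, 3 and 4, 0.0238 to 0.0827), Ctps (aPD1_lef replicate 3 and aPD1_veh replicates 1, 2, 3 and 4, 0.0114 to 0.0869), Nme1 (aPD1_lef replicate 3 and aPD1_veh replicate 4, 0.00602 to 0.0574), Uck2 (aPD1_lef replicate 3 and aPD1_veh replicates 2, 3 and 4, 0.00552 to 0.0599) and Upp1 (aPD1_lef replicates 1 and 3 and aPD1_veh replicates 2, 3 and 4, 0.0265 to 0.112).

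Of 9 tested genes of the aryl hydrocarbon receptor and its targets (18 listed, of which 7 were below 1 FPKM in all 8 libraries), 1 was called higher and 1 lower, 11.1% each against 15.7% and 10.7% of all genes, and no higher call was left without any 1 library other than aPD1_lef replicate 4. Cyp1a1, the receptor's best known target, stood at 1.19, 0.865, 0.236 and 0.108 FPKM against 2.60, 3.08, 3.80 and 5.15 and fell by 1.57 ± 0.253 (adjusted p = 0.00564). Every aPD1_lef library was below every aPD1_veh library, and replicates 3 and 4 were near 0. Nqo1, a quinone reductase that other pathways also control, stood at 44.9, 48.9, 51.8 and 41.1 FPKM against 37.3, 34.1, 37.5 and 40.2 and was called higher by a small margin. Ahr itself stood at 2.63, 3.32, 2.34 and 1.66 FPKM against 3.51, 3.05, 4.35 and 3.55 and did not pass (adjusted p = 0.0797). Leaving out single libraries ended the call of Nqo1 (aPD1_lef replicates 1, 2 and 3 and aPD1_veh replicates 1, 2, 3 and 4, 0.00985 to 0.125).

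Of 22 cell cycle genes tested (36 listed, 2 passing the filter only through aPD1_lef), 13 were called higher and none lower, with a median of 0.65. Mcm6 and Mcm3, of the replicative helicase, rose by 0.97 ± 0.150 and 0.73 ± 0.149, E2f1, a transcription factor of the G1 to S step, stood at 1.75, 1.43, 2.13 and 1.82 FPKM against 0.984, 0.838, 0.603 and 0.522, passing the filter only through aPD1_lef, and Uhrf1, which carries methylation through replication, at 2.14, 1.53, 2.92 and 2.17 against 1.01, 0.688, 0.751 and 0.506. Replicate 3, not replicate 4, was the highest aPD1_lef library in 7 of the 13 genes. The count was 5, 7 and 7 without aPD1_lef replicate 3 and aPD1_veh replicates 2 and 4. Of 23 p53 targets, 4 were called higher and none lower, a share of 17.4% against 15.7% of all genes, and the count was 1, 1, 1, 2 and 1 without aPD1_lef replicates 1 and 3 and aPD1_veh replicates 2, 3 and 4, while 2 were called lower without aPD1_lef replicate 2 or 4: Phlda3, an inhibitor of Akt, stood at 28.4, 21.8, 32.0 and 29.9 FPKM against 11.7, 9.88, 9.81 and 7.43 and rose by 1.44 ± 0.155, and the others were Zmat3, Bax and Perp. Omission of 1 library was enough to lose the call of Zmat3 (aPD1_lef replicates 1 and 3 and aPD1_veh replicates 2 and 4, 0.0137 to 0.0709), Bax (aPD1_lef replicates 1 and 3 and aPD1_veh replicates 2, 3 and 4, 0.0313 to 0.0968) and Perp (aPD1_lef replicates 1, 3 and 4 and aPD1_veh replicates 1, 2, 3 and 4, 0.0162 to 0.113).

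**Figure D3:**
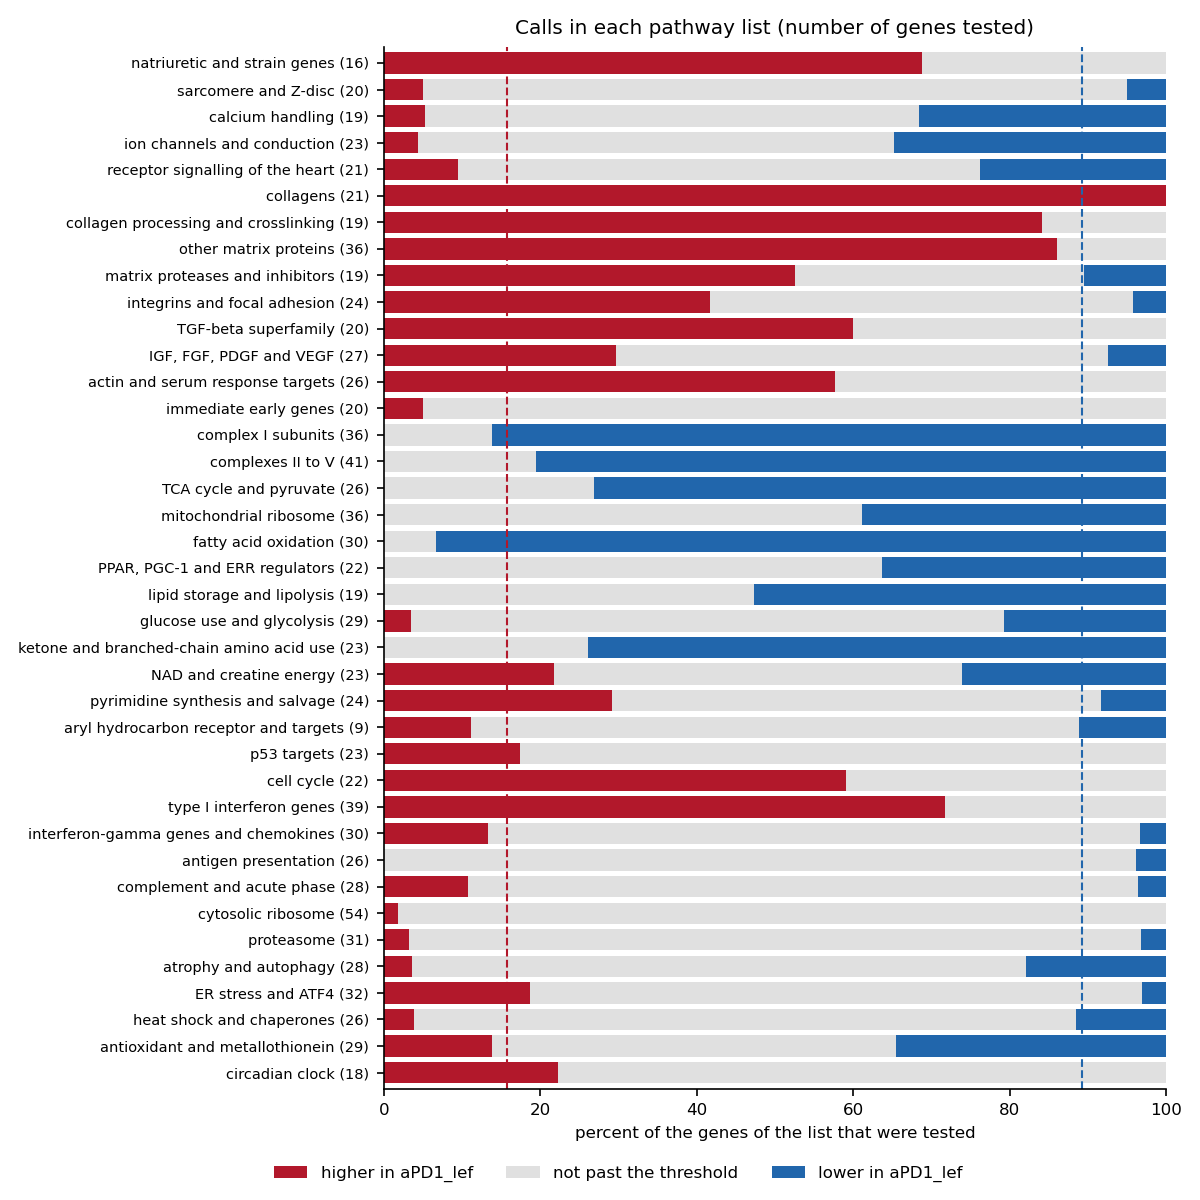
For each pathway list, the bar gives the percent of its tested genes called higher in aPD1_lef (red), called lower (blue) or not past the threshold (grey), and the dashed lines mark the shares among all 11834 genes tested, 15.7% higher and 10.7% lower. Matrix, strain, actin, cell cycle and type I interferon lists lie far past the line for higher calls. The mitochondrial lists and most fuel lists lie far past that for lower calls. Among the other fuel lists, glucose use had 20.7% lower calls, and NAD and creatine energy 26.1% lower and 21.7% higher. The antigen presentation, ribosome and proteasome lists hold few calls of either kind.

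Type I interferon genes, the antiviral program that interferon alpha and beta switch on, were higher in the libraries labelled aPD1_lef, and their order across libraries differed from that of the matrix genes. Of 39 tested, 28 were called higher and none lower, with a median of 0.91, and the count was 16, 18 and 13 without aPD1_veh replicates 2, 3 and 4. Oas1a, an antiviral synthetase, stood at 14.6, 12.1, 7.80 and 7.93 FPKM in aPD1_lef and at 3.502, 3.17, 3.17 and 2.49 in aPD1_veh and rose by 1.47 ± 0.196 (adjusted p = 0.00267). Isg15, a ubiquitin-like modifier, stood at 56.8, 39.3, 21.7 and 30.2 FPKM against 13.2, 12.9, 14.5 and 6.26, and Bst2, the tetherin that holds virus at the cell surface, at 107, 87.6, 66.7 and 131 against 44.7, 50.3, 46.6 and 34.3. Dhx58, a helper of the RNA sensors, stood at 5.05, 4.34, 3.19 and 5.15 FPKM against 1.35, 1.41, 1.37 and 1.09 and rose by 1.22 ± 0.136, and Zbp1, a sensor of nucleic acid in the Z form, rose by 1.57 ± 0.277. Replicate 1 was the highest aPD1_lef library in 21 of the 28 genes and replicate 3 the lowest in 22. The list's median difference from the aPD1_veh mean was 1.34, 1.19, 0.53 and 0.68 in replicates 1 to 4, and replicates 1 and 2 were also those with atrial transcripts. Without those 2 libraries 20 genes were called, with a median of 0.53; the part of atrial tissue in this result was not tested.

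Factors activated by type I interferon bind the interferon-stimulated response element, searched here as GAAANNGAAA on both strands. It stood in the window of 16 of 29 list genes with a window, against 3.99% of 27025 genes. It also stood in 11 of 22 genes of the interferon-gamma and chemokine list, of which 4 of 30 tested were called higher. In the type I list it was present in 13 of the 21 called higher and in 3 of the 8 that did not pass. The 150 bases before the start of Isg15 (chr4:156200819-156200968), Oas1a (chr5:120907526-120907675) and Bst2 (chr8:71537473-71537622), all on the minus strand, from RefSeq on GRCm38.p6, are shown because they differ in where the element lies, with every match in capitals and overlapping matches joined. Isg15 holds 3 overlapping matches, Oas1a 2 next to the start and Bst2 2 far from it; Isg15 and Bst2 were chosen after their values were seen.
Isg15: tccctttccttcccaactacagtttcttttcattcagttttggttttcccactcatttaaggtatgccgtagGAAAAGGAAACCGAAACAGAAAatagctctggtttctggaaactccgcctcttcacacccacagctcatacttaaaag
Oas1a: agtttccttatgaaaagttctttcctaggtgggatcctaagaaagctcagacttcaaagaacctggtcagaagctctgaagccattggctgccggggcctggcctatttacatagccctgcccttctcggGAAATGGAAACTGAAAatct
Bst2: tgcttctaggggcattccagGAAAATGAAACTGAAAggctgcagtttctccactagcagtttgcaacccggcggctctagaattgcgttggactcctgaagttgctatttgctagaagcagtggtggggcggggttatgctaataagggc

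**Figure D4:**
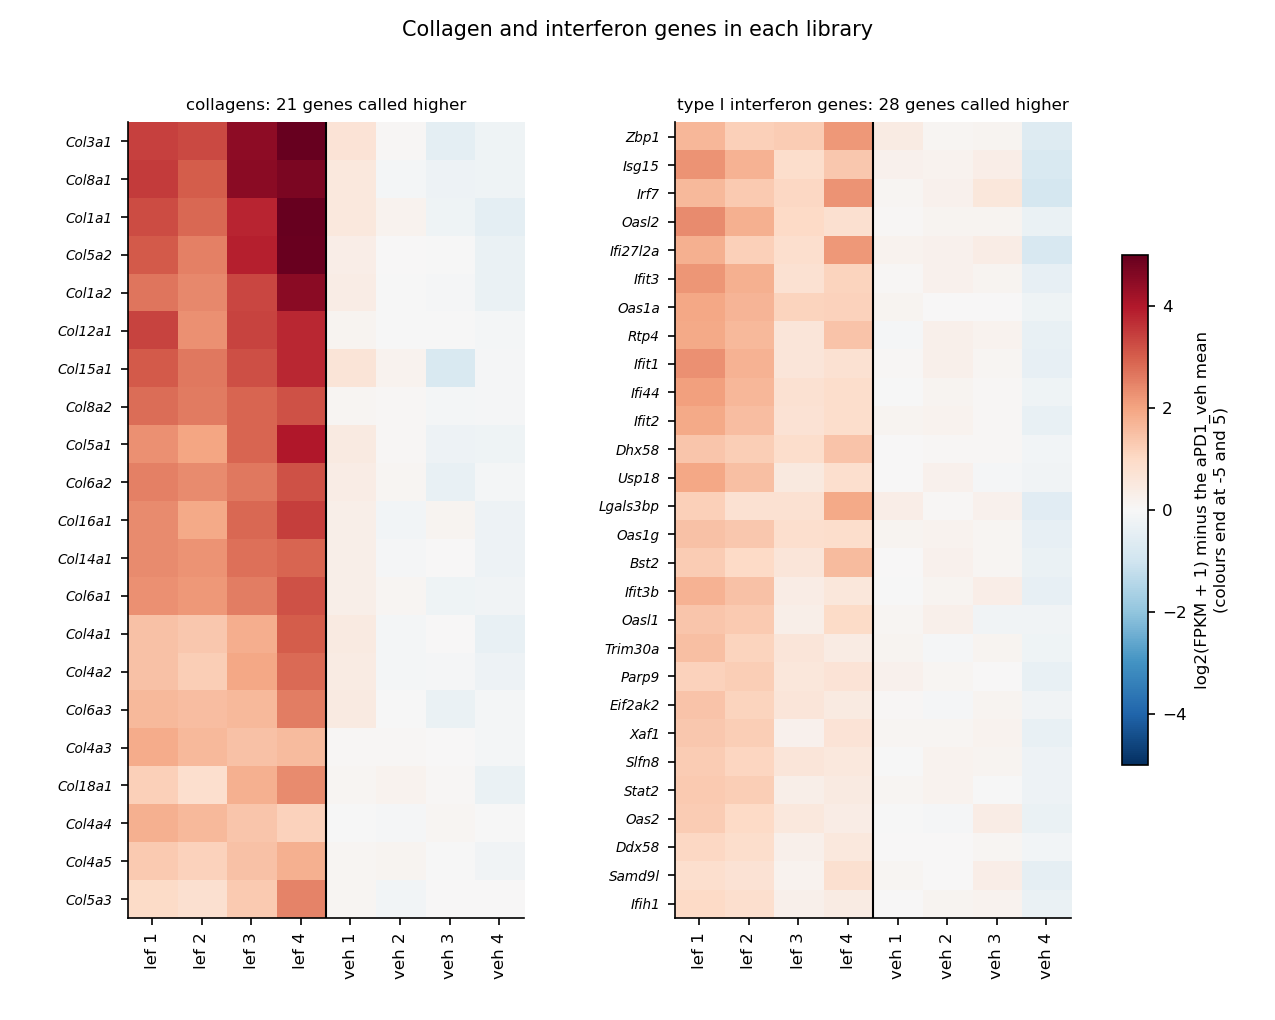
Each row is a gene called higher and each column a library, coloured by log2(FPKM + 1) minus the aPD1_veh mean of the gene, for 21 collagens (left) and 28 type I interferon genes (right). The collagens are deepest in aPD1_lef replicate 4, and most interferon genes in aPD1_lef replicate 1 and then replicate 2.

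Other immune genes gave fewer calls. Of 30 interferon-gamma genes and chemokines tested, 4 were called higher and 1 lower, both below the shares of all genes. Ccl12, a chemokine that draws monocytes, stood at 15.1, 13.7, 14.1 and 13.0 FPKM against 4.19, 6.61, 3.58 and 3.86, even in aPD1_lef, and rose by 1.46 ± 0.157 (adjusted p = 0.00117). Gbp3, Cx3cl1 and Cxcl10 were also called higher, and Cxcl12 lower. Of 26 antigen presentation genes, none was called higher and 1 lower, Psme1, an activator of the proteasome, at 87.2, 98.2, 64.9 and 64.6 FPKM against 128, 138, 134 and 127. Cd274, the ligand of PD-1, stood at 6.43, 6.31, 3.49 and 3.94 FPKM against 7.74, 5.13, 4.60 and 4.11 and did not pass (adjusted p = 0.792). Of 28 complement and acute phase genes, 3 were called higher and 1 lower. Serping1, the inhibitor of the first complement component, and Masp1, a protease of the lectin pathway, were among those called higher, and Cd59a, which blocks the membrane attack complex, was called lower. The count of higher complement calls was 1 each without aPD1_lef replicates 1 and 3 and aPD1_veh replicates 1, 2 and 4. Without the 2 libraries with atrial transcripts 12 complement genes were called higher. Single libraries decided the call of Gbp3 (aPD1_lef replicate 1 and aPD1_veh replicates 2, 3 and 4, 0.0187 to 0.0814), Cx3cl1 (aPD1_lef replicate 3 and aPD1_veh replicates 1, 2, 3 and 4, 0.00935 to 0.0867), Cxcl10 (aPD1_lef replicates 1 and 3 and aPD1_veh replicates 1, 2 and 4, 0.0258 to 0.0904), Cxcl12 (aPD1_lef replicate 1 and aPD1_veh replicates 1, 2, 3 and 4, 0.0227 to 0.0938), Serping1 (aPD1_lef replicates 1, 3 and 4 and aPD1_veh replicates 1, 2, 3 and 4, 0.0271 to 0.105), Masp1 (aPD1_lef replicates 1 and 3 and aPD1_veh replicates 1, 2, 3 and 4, 0.027 to 0.128) and Cd59a (aPD1_veh replicates 2, 3 and 4, 0.00383 to 0.0695).

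T cells, the cells on which PD-1 acts, left almost no transcripts. Of the 17 T and NK cell markers found in the table, 14 were below 1 FPKM in every library and their sum was 5.38 to 12.2 FPKM in aPD1_lef and 6.85 to 8.80 in aPD1_veh. Cd3e stood at 0, 0.215, 0.205 and 0.271 FPKM against 0.180, 0.0930, 0.157 and 0.141, and Pdcd1, the gene of PD-1, at 0, 0.105, 0.0742 and 0.445 against 0.0833, 0.102, 0.139 and 0. Neither passed the filter. Of 17 macrophage markers tested, 2 were called higher and none lower. The higher share of 11.8% was below the 15.7% of all genes, of which 10.7% were called lower. The genes called were Fcgr1, an Fc receptor, at 4.08, 4.03, 4.73 and 7.02 FPKM against 1.66, 1.80, 1.84 and 1.18, and Trem2, a receptor of lipid-handling macrophages. Without the 2 libraries with atrial transcripts the count was 8. Neutrophil markers summed to 7.62 to 310.2 FPKM in aPD1_lef and to 57.3 to 124 in aPD1_veh; S100a8 and its partner S100a9 fell and most of the highest sum was Lcn2, at 4.47, 3.34, 21.9 and 249.1 FPKM in aPD1_lef, which many other cells make under stress and which was chosen after its values were seen. The count of neutrophil calls, with Mmp9, which passed the filter only through aPD1_veh, the other, was 1, 5, 1, 1, 1 and 1 without aPD1_lef replicates 3 and 4 and aPD1_veh replicates 1, 2, 3 and 4. Some calls did not outlast each omission of 1 library: Trem2 (aPD1_lef replicate 3 and aPD1_veh replicates 1, 2 and 4, 0.0157 to 0.074) and S100a9 (aPD1_lef replicates 1 and 3 and aPD1_veh replicates 1, 2, 3 and 4, 0.000206 to 0.0752).

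Transcripts of red cells were lower in every aPD1_lef library. Of 8 erythroid markers tested, 7 were called lower, none higher and all 8 did not overlap, with a median of -1.47, and no single library changed that count by more than 1. Hbb-bs, the beta globin, stood at 1172, 1285, 1353 and 1192 FPKM in aPD1_lef and at 3725, 2686, 4577 and 4374 in aPD1_veh and fell by 1.59 ± 0.185 (adjusted p = 0.00147). Alas2, the first enzyme of heme synthesis in red cells, stood at 11.6, 11.8, 13.1 and 11.3 against 48.4, 32.1, 62.6 and 49.4 FPKM and fell by 1.89 ± 0.180. In both genes the aPD1_lef libraries lay within a narrow range. Hbb-bt, a near-identical globin copy, stood at 550.2, 618, 625 and 543 FPKM against 1771, 1267, 2192 and 2117, and reads may have been split between the copies. Of the 14 endothelial markers, 1 was called lower (Eng, at 73.5, 73.5, 75.3 and 74.9 FPKM against 93.6, 107, 115 and 89.3) and none higher, and Pecam1 stood at 82.2, 77.7, 85.6 and 123 FPKM against 88.4, 76.1, 105 and 79.8. With 1 library left out, calls were lost for Eng (aPD1_lef replicate 3 and aPD1_veh replicate 2, 0.0104 to 0.0625).

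Stress and protein quality genes were mixed, and several lists were highest in aPD1_lef replicate 4. Of 20 immediate early genes, 1 was called higher, Egr3, a transcription factor of the early growth response, at 2.73, 1.14, 1.52 and 1.45 FPKM against 0.450, 0.309, 0.435 and 0.122, which passed the filter only through aPD1_lef. Without aPD1_lef replicate 4 the list held 2 higher and 2 lower calls. The list's median in replicate 4 was 1.68 above the aPD1_veh mean, against -0.14 to 0.44 in the other aPD1_lef libraries. Of 32 genes of ER stress and ATF4, 6 were called higher and 1 lower, 18.75% higher against 15.7% of all genes; Aldh18a1, of proline synthesis, stood at 6.66, 5.48, 7.21 and 7.80 FPKM against 4.12, 3.42, 2.84 and 3.24 and rose by 0.82 ± 0.127, and the gene that fell was Herpud1, of ER-associated degradation, at 66.8, 80.4, 56.4 and 74.5 against 124, 137, 358 and 138, with aPD1_veh replicate 3 far above its group. The count of higher calls was 11, 1, 1, 2 and 1 without aPD1_lef replicates 2 and 3 and aPD1_veh replicates 2, 3 and 4. Among 29 antioxidant genes, 4 were called higher and 10 lower. Nox4, the oxidase that makes hydrogen peroxide in fibroblasts and muscle cells, stood at 5.49, 4.46, 5.28 and 7.62 FPKM against 0.336, 0.253, 0.815 and 0.150, and passed the filter only through aPD1_lef. Gstm2, a glutathione transferase, stood at 59.3, 60.8, 55.3 and 59.7 FPKM against 106, 97.7, 112 and 113, even within both groups, and fell by 0.85 ± 0.0846 (adjusted p = 0.000811). Gstm1 and Gsta3, of the same enzyme class, fell by 1.19 and 1.47. The count of higher antioxidant calls was 1, 2, 1, 2 and 1 without aPD1_lef replicate 3 and aPD1_veh replicates 1, 2, 3 and 4. The count of lower ones was 6 each without aPD1_lef replicate 3 and aPD1_veh replicates 1, 2 and 4. Leaving out single libraries ended the call of Herpud1 (aPD1_lef replicate 3 and aPD1_veh replicate 4, 0.0107 to 0.0668).

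The cytosolic ribosome (1 of 54 genes called higher, none lower) and the proteasome (1 of 31 each way) held fewer calls than all genes. Their medians were 0.04 and -0.01, and with libraries scaled to one total 8 proteasome genes were called higher. Without aPD1_lef replicate 4 the ribosome list held 4 lower calls, and without replicate 2 the proteasome list held 3 higher ones. Of 28 atrophy and autophagy genes, 1 was called higher and 5 lower, which is 3.57% and 17.9% against 15.7% and 10.7% of all genes; Map1lc3b, of the autophagosome membrane, stood at 76.8, 82.6, 69.7 and 66.9 FPKM against 99.1, 102, 120.1 and 105, and Fbxo31, a ubiquitin ligase subunit, at 13.9, 19.0, 11.3 and 12.4 against 30.0, 35.5, 52.97 and 30.8. The lower count was 3 each without aPD1_lef replicate 3 and aPD1_veh replicates 1, 2, 3 and 4, and no higher call was left without aPD1_lef replicate 1 or 3 or any 1 aPD1_veh library. Of 18 clock genes, 4 were called higher and none lower, 22.2% against 15.7%, and Bhlhe41, a repressor of the clock, stood at 12.6, 12.6, 12.4 and 29.6 FPKM against 5.74, 5.49, 4.13 and 5.65. The count was 1, 2, 1 and 1 without aPD1_lef replicate 1 and aPD1_veh replicates 1, 3 and 4. The hour at which hearts were taken is not in the labels.

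Among the aPD1_lef libraries the size of the change followed an order. Of the 445 genes called higher by at least 1 on the log2 scale, replicate 4 was the highest aPD1_lef library in 294 and replicate 2 the lowest in 333. Of the 264 called lower by as much, replicate 4 was the lowest in 219 and replicate 2 the highest in 231. Collagens had medians of 2.37, 2.18, 2.75 and 3.18 above the aPD1_veh mean in replicates 1 to 4, and complex I genes -0.56, -0.41, -0.67 and -1.33. Replicate 2 was thus the nearest to aPD1_veh in both, and it held Myl7, as did replicate 1. The interferon genes, with replicate 3 the lowest, did not follow this order. The erythroid markers followed it only in part, with close medians of -1.57 to -1.35 in all 4 libraries. Of the 7 called lower, replicate 4 was the farthest from aPD1_veh in 6, but replicate 3 was the nearest in 5. These orders describe 4 libraries and were not tested.

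**Figure D5:**
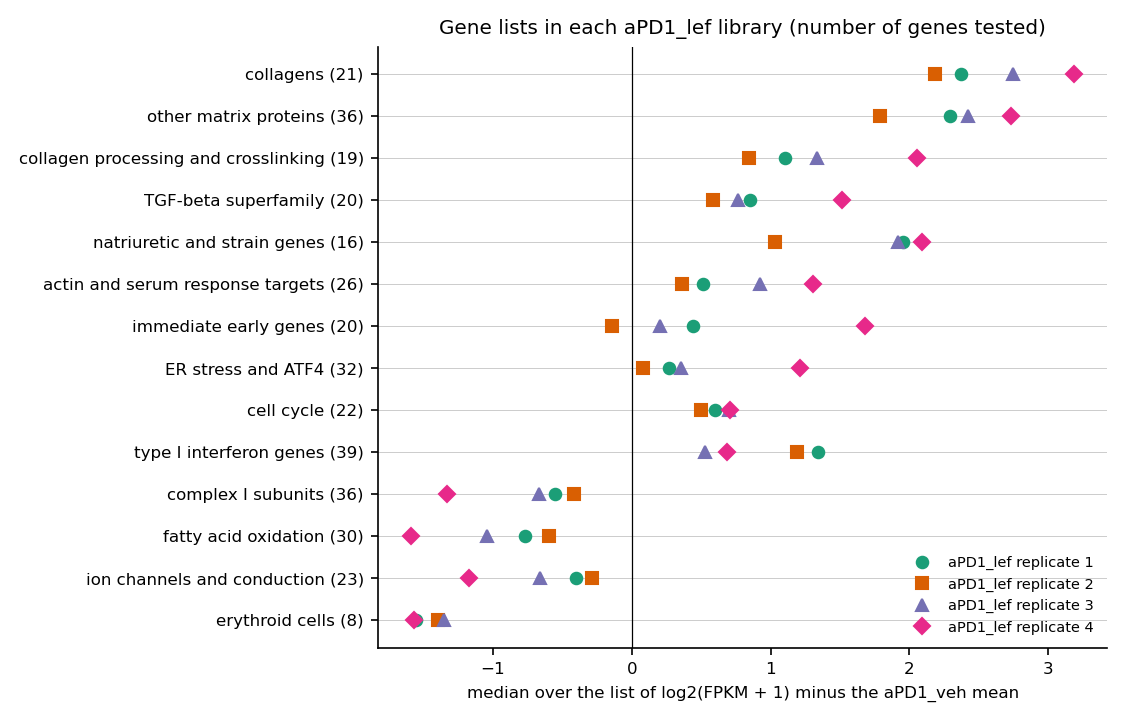
For 14 lists, the points give the median over the tested genes of log2(FPKM + 1) minus the aPD1_veh mean in each aPD1_lef library. Replicate 4 (diamonds) lies farthest from 0 and replicate 2 (squares) nearest in most lists, whereas in the type I interferon list replicates 1 and 2 are the highest, at 1.34 and 1.19.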

How the data were processed

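Heart RNA libraries were sequenced, and the authors deposited 1 table of values per gene. The submitters' processing notes name HISAT2, DESeq2 and mm10 without saying what each was used for. The table states no unit: the deposited values were taken as FPKM because they are not whole, differ in total between libraries and fall with gene length at their lowest, though the slope of -0.22 on log2 scales is shallower than FPKM of single reads would give, which leaves the unit uncertain. At best 11.8 to 12.5% of values per library came within 0.05 of a whole read, against 10% by chance, so reads were not recovered and the depth is unknown. Columns were matched to samples by the library name in each description; 1 column matched none and was not used. FPKM values are relative, so that a few very high genes lower all others.

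Genes at 1 or more in at least 4 of the 8 libraries (11834 of 34714) were tested on log2(FPKM + 1), a scale that understates changes of low genes, with limma 3.58.1 (R 4.3.3, trend and robust options) and Benjamini-Hochberg adjustment over all genes tested; a gene was called at an adjusted p under 0.05. Adjusted p-values in the text are from this fit. The procedure was also run on simulated data, with independent libraries and the same spread in both groups. The median SD here was 0.224 in aPD1_lef and 0.127 in aPD1_veh, so that run cannot give the error rate for these data. Library totals were compared with an exact permutation test. The genes named are the 12 largest increases and decreases among called genes with a mean of at least 2 and no overlap, leaving out gene models, up to 4 members per list with the smallest p, up to 3 that went against their list, and some fixed by name; a few that the rule names are not reported here; others are said to be chosen after their values were seen, as were the further called members listed to complete a count. Genes, lists and comparison were chosen with earlier results of these data known. Lists are described by counts and medians. All 34714 symbols matched RefSeq on GRCm38.p6. Alternatives covered filters, pseudocount, scaling, the variance model, a fit of 11 libraries, the replicate number as a block, and omission of single libraries or of those with Myl7 at 10 or more. It is not stated whether samples with the same replicate number are pairs. Deviations of same-numbered libraries from their group means correlated at -0.066, 0.19, -0.198 and -0.285. Those of libraries with different numbers correlated at -0.279 to 0.271, so these values cannot tell whether the samples were paired.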

Additional observations from a re-analysis of the deposited data

Results flagged for a closer look

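In 25 of 352 groups of 4 values, the highest or the lowest library lay far from the other 3 by Dixon's test on log2(FPKM + 1), which chance does in about 1 of 20 groups. In aPD1_lef, replicate 4 was the distant library in 7 of them. It was low in Acta1 at 2779 FPKM, with the others at 3640 to 3729, in Cox7a2 at 201 FPKM, in Stc2 at 5.44 and in Vegfb at 94.4. It was high in Bhlhe41 at 29.6 FPKM, in Rgs2 at 6.39 and in S100a9 at 24.0, where the others stood at 1.32 to 1.59. The distant aPD1_lef libraries otherwise were replicate 1 in Corin at 21.7 FPKM, replicate 2 in Pi16 at 112 and in Zmat3 at 2.34, and replicate 3 in Ccn5 at 129.7. In aPD1_veh, replicate 1 was distant in Igf1 at 1.81 FPKM, Lum at 39.9, Pcolce at 46.6, Uck2 at 24.2 and Xirp2 at 36.1. Replicate 2 was distant in Hspd1 at 198 FPKM, and replicate 3 in Bhlhe41 at 4.13, Ctps at 11.9, Herpud1 at 358, Pcx at 14.2 and Pdgfrb at 20.6. Replicate 4 was distant in Efnb3 at 49.3 FPKM and Isg15 at 6.26, and in its number of genes at 1 or more, 11352, with the others at 11671 to 11710.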

How the results depend on the processing

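Of 3128 genes called, 1861 higher and 1267 lower, with 709 of at least 1 on the log2 scale, the counts stayed within 1.5 times under both other filters, a pseudocount of 0.1, quantile and median-ratio scaling, both other variance models and the fit of 11 libraries. Scaling to one total gave 3001 higher and 789 lower, and array weights gave 6150 calls, 3689 higher and 2461 lower. Leaving out 1 library at a time gave 1183 to 4075 calls, 791 to 2421 higher, 392 to 1654 lower and 472 to 982 of at least 1 on the log2 scale. Without both libraries that held atrial transcripts 1946 genes were called lower and 1416 by at least 1 on the log2 scale. The replicate number as a block gave 1283 calls, 836 higher and 447 lower, with 1 sample per number and group. The labels give the samples a shared number and do not state a pairing. Of 3459 pairs of a named gene and a setting, 299 lost the call, 16 gained it and 9 changed sign. The 9 belong to genes that were not called. The difference of Cd274 turned to 0.03657 under one total and 0.1214 under array weights, and ranged from -0.1986 to 0.07383 with 1 library left out, turning without aPD1_lef replicate 3 or aPD1_veh replicate 1. That of Lcn2 turned to -1.022 under array weights and ranged from -0.7312 to 1.218, turning without aPD1_lef replicate 4. That of Pecam1 turned to -0.01778 under array weights and ranged from -0.0809 to 0.1554, turning without the same library, and that of Umps turned to -0.01178 under quantile normalization. Apart from the omissions, which leave fewer samples, the cause was not tested. Depth is unknown, 4 libraries per group limit the precision, and values below 1 FPKM carry little weight.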

Other observations

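Of 26 genes of heat shock and chaperones tested, 1 was called higher and 3 lower, with a median of 0.23; the shares of 3.85% and 11.5% compare with 15.7% and 10.7% of all genes. The 3 that fell, Hspa9, Hspd1 and Hspe1, are chaperones of the mitochondrial matrix, and the 1 that rose was Hspa2. Hspd1 stood at 115, 138, 90.1 and 73.5 FPKM in replicates 1 to 4 of aPD1_lef and at 154, 198, 156 and 152 in aPD1_veh. Hspa9 stood at 202, 224, 186 and 165 FPKM against 269, 291, 269 and 299. Both were lowest in aPD1_lef replicate 4. Hspd1 and Hspe1 overlap by their ends, and the strand used in counting is not stated. Omission of 1 library was enough to lose the call of Hspa9 (aPD1_veh replicate 4, 0.00475 to 0.0507), Hspd1 (aPD1_lef replicates 1 and 3 and aPD1_veh replicates 1, 2, 3 and 4, 0.0125 to 0.0956), Hspe1 (aPD1_lef replicates 1, 3 and 4 and aPD1_veh replicates 1, 2, 3 and 4, 0.028 to 0.115) and Hspa2 (aPD1_lef replicate 1 and aPD1_veh replicates 1, 2, 3 and 4, 0.0216 to 0.0938).

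Markers of pigment cells, of interest because the series names a melanoma model, were near absent from the hearts: 6 of 9 were below 1 FPKM in all 8 libraries and 2 were tested. One of these, Mitf, a transcription factor of pigment cells that heart muscle also expresses, stood at 8.57, 8.14, 5.88 and 4.98 FPKM in aPD1_lef against 10.1, 10.8, 11.2 and 9.67 in aPD1_veh and fell by 0.56 on the log2 scale (limma, adjusted p = 0.0321). Single libraries decided the call of Mitf (aPD1_lef replicate 3 and aPD1_veh replicates 1, 2, 3 and 4, 0.0226 to 0.0854).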
